A study of Mus musculus with 22 samples.

Results

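The genes described here are 41 components of the protein entry and folding machinery of the endoplasmic reticulum (ER), taken by gene name from the deposited table of mouse liver transcripts. They are 3 stress sensors or their transcription factor, 15 chaperones and foldases, 4 genes of ER-associated degradation (ERAD), 10 genes of the translocon and 9 genes of the oligosaccharyl transferase (OST), out of 16469 genes in the table. All 41 passed the filter on low values, which 10763 genes passed. The set was chosen by function and selected on measured values, since lower levels of several of these genes after the lower particle dose were known when the names were put together, so for that contrast calls are counted as a description, no p-value is given and nothing is read from them.

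The study profiled the 3' ends of mRNA in perfused livers of C57BL6J mice, 1 library per liver, to see what lipid nanoparticles loaded with a Dicer-substrate RNA do to whole liver tissue. The column names of the table name Hprt as the target of that RNA. There were 7 controls, for which the labels give no treatment, and 8 livers taken 24 h after particles at 0.2 mg/kg. A further 4 livers came from mice given BLT-1, a small-molecule blocker of the lipoprotein receptor SR-B1, at 1 mg/kg and then the particles at 0.2 mg/kg after 24 h, and 3 livers came from mice given 2 mg/kg. No group received BLT-1 alone, and the labels give neither sex nor age nor a shared origin of animals, so the p-values measure the spread between these livers. Livers are named below by the animal number in their titles.

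Secreted and membrane proteins enter the ER through the Sec61 channel of the translocon, receive N-linked sugars from the OST as they emerge, and fold with the help of chaperones and disulfide-forming foldases, while misfolded chains are sent back to the cytosol by ERAD. When unfolded proteins build up, the sensors ATF6 and IRE1 (encoded by Ern1) raise the transcription of chaperone and ERAD genes, partly through the transcription factor XBP1, a program known as the unfolded protein response. Hepatocytes secrete most plasma proteins and carry much of this machinery.

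The promoter motif best known from stress-induced chaperones is shown first. The ER stress response element (ERSE), which reads CCAAT, 9 free bases and CCACG, is known as the site to which ATF6 and XBP1 bind together with NF-Y. RefSeq promoters (build GRCm38.p6), which run from 250 bases before to 50 after each start, were listed for 34 of the 41 genes, and the remaining members without an entry are Atf6, Hyou1, Manf, Sec61a1, Tram1, Ssr2 and Ostc. On either strand ERSE was found in 8 of these 34 genes (23.5%), against 37 of all 27025 genes with a promoter entry (0.137%). It lay in 7 of 13 listed chaperones and foldases, in 0 of 7 translocon genes, in 0 of 8 OST genes and, among 4 ERAD genes, in Syvn1. The 9 sites are printed 5′ to 3′ in the direction in which CCAAT precedes CCACG, each with 15 bases on either side, and capitals mark the fixed letters of the motif. Hsp90b1 carries a pair of them.
Hspa5, chr2:34772010-34772058, plus strand: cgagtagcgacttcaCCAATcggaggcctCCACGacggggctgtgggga
Hsp90b1, chr10:86705623-86705671, minus strand: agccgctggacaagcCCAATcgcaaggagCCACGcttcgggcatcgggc
Hsp90b1, chr10:86705518-86705566, plus strand: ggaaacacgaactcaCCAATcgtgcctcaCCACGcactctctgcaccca
Dnajc3, chr14:118937812-118937860, plus strand: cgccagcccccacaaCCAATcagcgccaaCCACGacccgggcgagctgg
Creld2, chr15:88819505-88819553, minus strand: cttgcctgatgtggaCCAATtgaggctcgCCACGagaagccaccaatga
Calr, chr8:84847060-84847108, plus strand: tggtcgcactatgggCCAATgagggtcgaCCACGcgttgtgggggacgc
Canx, chr11:50325785-50325833, minus strand: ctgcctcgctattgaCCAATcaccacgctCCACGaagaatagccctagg
Pdia6, chr12:17266476-17266524, plus strand: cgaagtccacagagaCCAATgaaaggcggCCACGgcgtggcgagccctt
Syvn1, chr19:6046517-6046565, plus strand: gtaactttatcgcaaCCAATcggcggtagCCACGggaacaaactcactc
The spacing of CCAAT and CCACG is fixed by the search, and the 9 bases between them differed from site to site. In Hspa5 the first C of the motif stood 65 bases before the start, and in Syvn1 it stood 44 bases before it.

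Herpud1 carried other motifs, and Sec61b and Ssr3, a pair of translocon genes on which later results turn, carried none of those searched. In Herpud1 capitals mark, in this order, a reverse-strand match to the core of the amino acid response element (TGATGNAA, known to bind ATF4) and the second ER stress element ERSE-II (ATTGG, 1 free base, CCACG). ERSE-II also lay in Dnajb11 and Krtcap2, at 7 and 17 bases after the start, and in 12 of the 27025 genes in all (0.0444%). TGATGNAA was found in 1219 genes (4.51%), and the XBP1 core TGACGTGG in 193 genes (0.714%) and in 0 of the 34. No motifs overlapped in these promoters. A match describes letters in this window and not binding, and a promoter without one may hold other sites.
Herpud1, chr8:94386302-94386402, plus strand: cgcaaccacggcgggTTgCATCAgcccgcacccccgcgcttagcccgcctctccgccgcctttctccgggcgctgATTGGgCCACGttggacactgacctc
Sec61b, chr4:47474541-47474660, plus strand: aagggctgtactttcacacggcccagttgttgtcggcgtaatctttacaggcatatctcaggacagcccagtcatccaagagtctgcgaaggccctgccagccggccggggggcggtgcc
Ssr3, chr3:65392554-65392673, minus strand: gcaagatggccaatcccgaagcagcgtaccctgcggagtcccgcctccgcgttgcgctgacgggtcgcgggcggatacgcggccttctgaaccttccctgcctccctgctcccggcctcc

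Libraries held 7152596 to 15101565 reads, of which spike-in RNA took 2.58 to 7.18%. A member had 14 to 24697 reads in a library, the fewest for Ern1 in control 29, so the low genes Ern1, Atf6, Stt3a and Ssr1 carry the most counting error. Levels are given in CPM, reads scaled to a common library size by TMM, and differences as log2 fold change with its standard error. Hprt was 13 to 17.7 CPM at 2 mg/kg, 26.0 to 30.9 at 0.2 mg/kg, 24.2 to 28.9 with BLT-1 and 24.8 to 38.7 in controls. The low level at 2 mg/kg was thus not seen at 0.2 mg/kg, with or without BLT-1. The summed level of 5 hepatocyte markers was 20321 to 25383 CPM in controls, 19211 to 21572 at 0.2 mg/kg, 18545 to 20445 with BLT-1 and 15622 to 19269 at 2 mg/kg. Alb, Ttr and Apoa1 made up most of this sum. Medians in controls, at 0.2 and at 2 mg/kg were 13884, 11930 and 10667 CPM (Alb), 5056, 5537 and 4011 (Ttr) and 2920, 2651 and 2275 (Apoa1). They were 94.7, 82.3 and 75.8 for Cps1 and 20.6, 17.5 and 19.6 for Apob. In whole tissue fewer cells of a type and less RNA per cell cannot be told apart. The 3 livers at 2 mg/kg also differed from all others in sex-linked transcripts, with Xist at 2.82 to 4.88 CPM (at most 0.312 elsewhere) and Ddx3y at 6.47 to 8.90 (15.6 to 19.2 elsewhere), so that dose and this difference cannot be told apart.

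Controls 28 and 29 stood apart in many genes of this list, and results are therefore given with and without them. Hspa5 (ENSMUSG00000026864.14) encodes BiP, the main chaperone of the ER lumen. Its level was 424 and 469 CPM in controls 28 and 29 and 169 to 216 in the other 5 controls. Hsp90b1, the ER paralog of HSP90, was at 316 and 352 CPM against 124 to 150, and Creld2, a secreted factor known to rise in ER stress, at 66.1 and 70.2 against 17.8 to 24.5. Manf, a neurotrophic factor that binds BiP, was at 73.0 and 96.5 CPM against 34.1 to 46.8. Both livers exceeded every other control in 13 of 15 chaperones and foldases, the exceptions being Canx and Dnajb9.

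That ordering held in 3 of 10 translocon genes, 3 of 9 OST genes, 1 of 4 ERAD genes and 1 of 3 sensors. Over all members it held in 21 of 41 (51.2%), beside 1484 of 10763 genes tested (13.8%). The list was drawn up knowing that several members were lower at 0.2 mg/kg than in these same controls. High levels in 28 and 29 add to such a difference, so part of these counts follows from that choice and nothing is read from them. Among the 8 genes with ERSE it held in 7, among the 6 listed chaperones without ERSE in 5, and among the other 20 listed members in 6. Ern1 went the other way, with its lowest levels among the controls at 1.77 and 1.39 CPM in 28 and 29 against 2.18 to 2.36. The SD of log2 level between controls had a median of 0.303 over chaperones and foldases, 0.0935 over translocon genes and 0.122 over OST genes, and without 28 and 29 these were 0.115, 0.0730 and 0.0881. Over all genes tested it was 0.234.

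**Figure D1:**
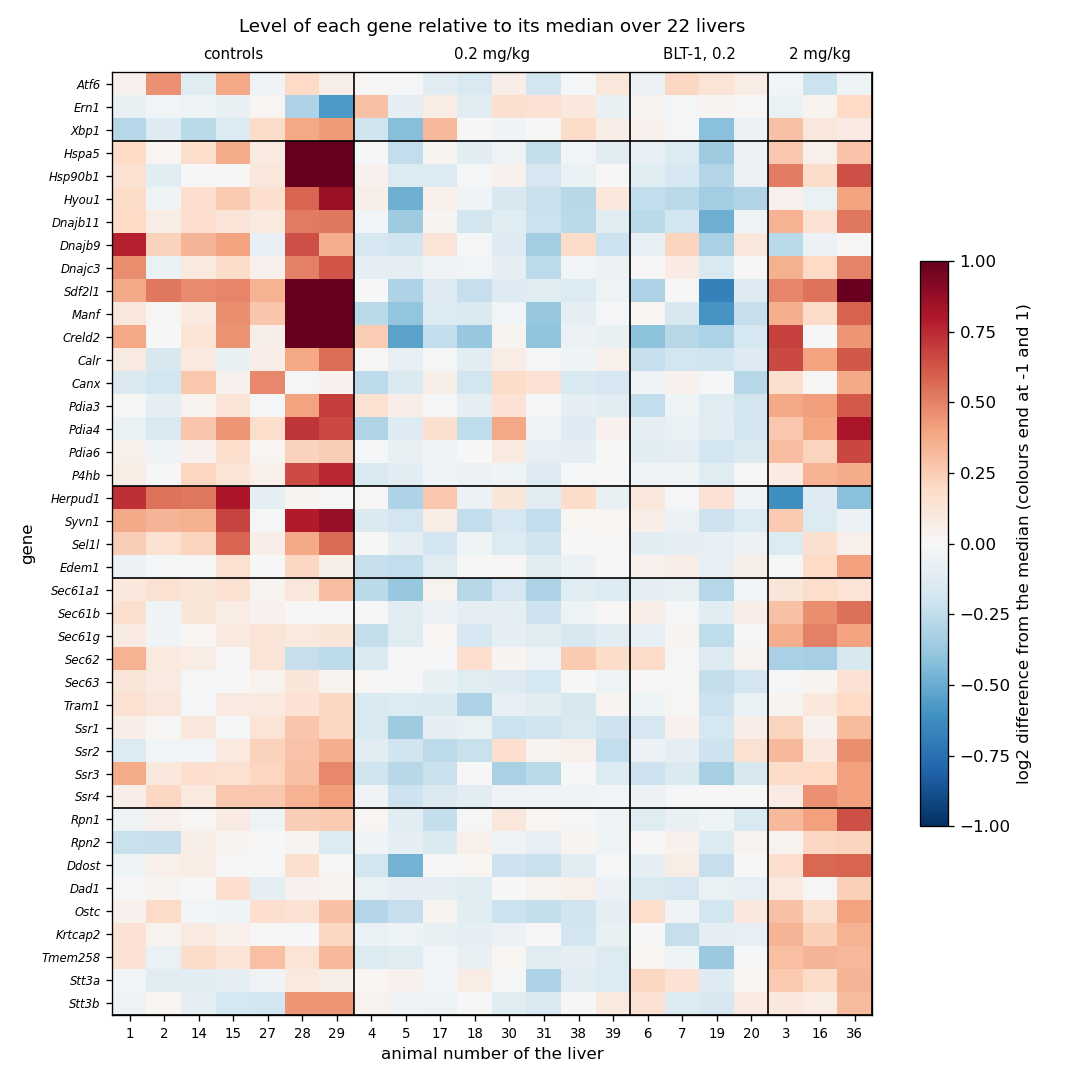
Level of each of the 41 genes (rows, by class from sensors to OST) in each of the 22 livers (columns, by group and animal number), as the log2 difference from the median of that gene over all livers. Controls 28 and 29 are dark red across most of the 15 chaperones and foldases, the 0.2 mg/kg livers are mostly blue, and the 2 mg/kg livers are mostly red in the translocon and OST rows.

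The first contrast set 0.2 mg/kg against controls. Here 19 of the 41 genes were called lower and 0 higher at an adjusted p below 0.05 (limma with Benjamini-Hochberg adjustment over all genes), beside 2.37% of all genes called lower and 3.39% called higher, and nothing is read from this count because the list was drawn up with this contrast in view. They were 8 of 15 chaperones and foldases (Hspa5, Hyou1, Dnajb11, Dnajb9, Dnajc3, Sdf2l1, Manf, P4hb), 2 of 4 ERAD genes (Syvn1, Sel1l), 6 of 10 translocon genes (Sec61a1, Sec61g, Tram1, Ssr1, Ssr3, Ssr4) and 3 of 9 OST genes (Ostc, Krtcap2, Tmem258). The median log2 fold change was -0.40 for chaperones and foldases, -0.38 for ERAD, -0.23 for the translocon and -0.11 for the OST, against 0.00 over all genes. Without controls 28 and 29 the count was 14, with 4, 3, 6 and 1 in the same classes (beside 2.29% of all genes called lower and 3.2% called higher), and the chaperone median was -0.23 while the translocon median was -0.20. Of the 19 calls, 13 held in each of 22 fits with 1 library left out. Hspa5 lost its call in 18 of these fits, among them those without control 28 or 29, Krtcap2 in 11, P4hb in 9, Hyou1 in 6, Manf in 3 and Dnajc3 in 1.

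Among the sensors no member was called. Ern1, the kinase and RNase IRE1, had 1.39, 2.18 and 2.36 CPM as its lowest, median and highest control and 2.11, 2.50 and 2.95 at 0.2 mg/kg, the largest positive difference of the list (log2 0.22 ± 0.09). Atf6, the membrane-bound transcription factor, ran from 2.74 over 3.18 to 4.33 CPM in controls and from 2.61 over 2.99 to 3.31 at 0.2 mg/kg (log2 -0.17 ± 0.08). Both pairs of groups overlapped. Xbp1 was at 43.8 to 72.2 CPM in controls and 39.8 to 67.1 at 0.2 mg/kg. In a 3' end library the spliced and unspliced forms of its transcript are not told apart.

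Sdf2l1, a BiP co-factor of the ER lumen, was lower in every liver at 0.2 mg/kg than in any control. Its lowest, median and highest levels were 16.5, 18.2 and 32.8 CPM in controls and 10.2, 11.7 and 12.9 CPM at 0.2 mg/kg. The gap held with or without 28 and 29 (log2 -0.80 ± 0.14, and -0.58 without them). Dnajb11, the BiP co-chaperone ERdj3, ran from 32.7 over 34.9 to 45.0 CPM in controls and from 24.1 over 27.8 to 31.6 at 0.2 mg/kg, again without overlap (log2 -0.40 ± 0.09). Hspa5 ran from 169 over 191 to 469 CPM in controls and from 141 over 158 to 170 at 0.2 mg/kg, where the highest treated liver just passed the lowest control. Its log2 difference was -0.62 ± 0.18 with all controls and -0.26 without 28 and 29.

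Creld2 had the largest chaperone difference in this contrast (log2 -0.87 ± 0.26), and it shrank to -0.38 without 28 and 29. Its control levels were 17.8, 23.4 and 70.2 CPM (lowest, median, highest), those at 0.2 mg/kg were 12.2, 15.9 and 21.3, and the groups overlapped. Hyou1, a large ER chaperone that helps BiP exchange nucleotide, went from 11.7, 13.7 and 22.2 CPM to 8.43, 11.2 and 13, also with overlap (log2 -0.43 ± 0.12). P4hb, the protein disulfide isomerase, was at 1410 to 2364 CPM in controls and 1262 to 1398 at 0.2 mg/kg. These groups did not overlap, and the log2 difference was -0.34 ± 0.09, or -0.16 without the high pair. The foldases and lectin chaperones Calr, Canx, Pdia3, Pdia4 and Pdia6 overlapped with controls in every case, at log2 -0.33 (Pdia4) to -0.13 (Pdia6).

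In ERAD, Syvn1, the ubiquitin ligase HRD1, had 11, 14.7 and 20.8 CPM in controls and 9.34, 9.99 and 11.8 at 0.2 mg/kg. Only control 27 lay within the treated range (log2 -0.60 ± 0.11). Its adaptor Sel1l had 16, 18.2 and 23.2 CPM in controls and 13.3, 14.7 and 15.4 at 0.2 mg/kg, without overlap (log2 -0.40 ± 0.07). Herpud1, which recruits substrates to that ligase, split the controls by animal number, with 189 to 230 CPM in controls 1, 2, 14 and 15 and 123 to 133 in 27, 28 and 29. The 8 treated livers lay at 106 to 158 CPM, so they overlapped with the lower controls only. Within number ranges the log2 difference was -0.79 for animals 1 to 7, -0.57 for 14 to 20 and 0.03 for 27 to 31.

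Of the 10 translocon genes, Ssr3, Sec61a1 and Ssr4 had the largest differences. Ssr3, a subunit of the translocon-associated protein complex (TRAP), which assists entry of some signal peptides, had 33.3, 35.9 and 43.2 CPM in controls and 24.6, 26.6 and 30.9 at 0.2 mg/kg. No treated liver reached a control (log2 -0.43 ± 0.06, and -0.38 without 28 and 29). Ssr4, another TRAP subunit, had 144, 166 and 184 CPM in controls and 119, 134 and 135 after treatment, also without overlap (log2 -0.32 ± 0.06). Sec61a1 (ENSMUSG00000030082.15), the channel itself, had 33.6, 35.8 and 40.8 CPM in controls and 25.2, 28.2 and 33.7 after treatment. Animal 17 alone among the treated livers reached the control range (log2 -0.34 ± 0.06). The small channel subunits were at log2 -0.20 ± 0.04 (Sec61g) and -0.13 ± 0.05 (Sec61b). Tram1, which helps chains enter the membrane, was at log2 -0.25 ± 0.05, and the TRAP subunit Ssr2 at -0.21 ± 0.09.

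Of the OST, Ostc, which is specific to the translocon-bound form of the enzyme, had 63.5, 72.2 and 80.1 CPM in controls and 53.4, 56.7 and 66.5 at 0.2 mg/kg (log2 -0.28 ± 0.06), with overlap. Krtcap2, another subunit of that form, had 47.0, 48.3 and 54.2 CPM against 41, 44.6 and 46.8, without overlap (log2 -0.16 ± 0.04). Ddost (ENSMUSG00000028757.5), a core subunit of both forms, had 12.1, 12.6 and 14.1 CPM against 8.86, 11.2 and 12.7. It overlapped with controls, as did Rpn1, Rpn2, Dad1 and both catalytic subunits, Stt3a and Stt3b. In all, 9 members were lower without overlap, beside 0.706% of all genes. The summed level of 5 Kupffer cell markers was 16.8 to 22.7 CPM in controls and 9.20 to 17.1 at 0.2 mg/kg. That of 5 sinusoidal endothelium markers was 40.6 to 54.0 CPM in controls and 38.8 to 73.9 at 0.2 mg/kg, among them Pecam1 with 6.98 to 20.4 and 11.2 to 42.8. The other listed endothelial markers did not share the rise of Pecam1. Their medians in controls and at 0.2 mg/kg were 18.5 and 16.1 CPM (Clec4g), 7.11 and 6.22 (Kdr), 3.54 and 3.51 (Stab2) and 5.03 and 5.43 (Lyve1). The part of Kupffer or endothelial cells in the differences of the members was not tested.

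**Figure D2:**
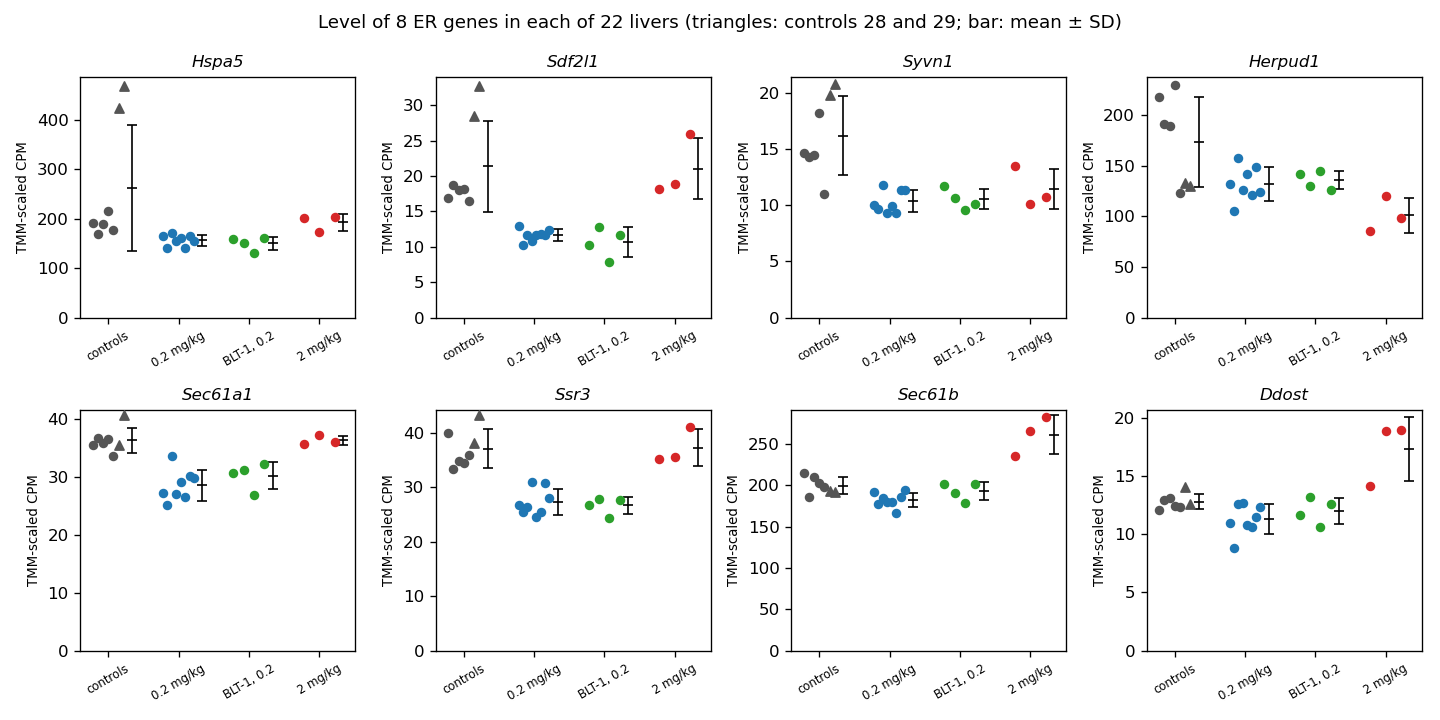
TMM-scaled CPM (vertical axis, from 0) of 8 genes in each liver of the 4 groups, with the group mean and SD beside the points and triangles for controls 28 and 29. Hspa5 and Sdf2l1 are high in those 2 controls, Ssr3 is lower in every 0.2 mg/kg liver than in any control, and Sec61b and Ddost are highest in the 3 livers at 2 mg/kg.

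At 2 mg/kg, 6 of the 8 members called higher than in controls were OST or small translocon subunits. Against controls 8 members were called higher and 1 lower, beside 4.03% of all genes called higher and 3.84% lower. The contrast uses the same controls as the one at 0.2 mg/kg, so it is not independent of how the list was drawn up. The p-values given for its genes are therefore descriptive, and nothing is read from the counts. Called higher were 4 of 9 OST genes (Rpn1, Ddost, Krtcap2, Stt3a), 2 of 10 translocon genes (Sec61b, Sec61g) and 2 of 15 chaperones and foldases (Calr, Pdia6), and the 1 called lower was Herpud1. Without controls 28 and 29 the counts were 10 higher and 2 lower (beside 5.46% and 6.32% of all genes), with Hsp90b1 and Pdia3 added above and Sec62 below. In Sec61b, Sec61g, Rpn1, Ddost, Krtcap2 and Stt3a the groups did not overlap upward (6 genes, beside 4.2% of all genes), and in Herpud1 they did not overlap downward (1 gene, beside 3.34%).

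Sec61b was 236, 266 and 283 CPM in livers 3, 16 and 36 at 2 mg/kg, against 186, 198 and 215 as the lowest, median and highest control. All 3 lay above all 7 controls, at 131% of controls (log2 0.39 ± 0.06, limma adjusted p = 0.000338). Sec61g was 379, 418 and 390 CPM against 287, 315 and 322, likewise without overlap (log2 0.35 ± 0.06, limma adjusted p = 0.000659). The channel protein Sec61a1 was not called, and its difference from its partners was not tested. It was 35.7, 37.3 and 36.1 CPM, all inside the control range (log2 0.00 ± 0.08, limma adjusted p = 0.994), and Ssr3 at 35.1, 35.4 and 41.1 CPM was also inside it (log2 0.01 ± 0.09, limma adjusted p = 0.984). These p-values do not show that the levels were equal.

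Among OST genes, Rpn1, which presents nascent chains to the enzyme, was 19.1, 20.3 and 24.0 CPM at 2 mg/kg against 14.5, 15.6 and 18.3 in controls, without overlap (log2 0.38 ± 0.08, limma adjusted p = 0.00528). Ddost was 14.1, 18.9 and 19 CPM, with liver 3 just above the highest control at 14.1 (log2 0.41 ± 0.10, limma adjusted p = 0.0137). Krtcap2 was 59.4, 55.2 and 59.7 CPM against 47.0 to 54.2 in controls (log2 0.23 ± 0.06, limma adjusted p = 0.0131). Stt3a, the catalytic subunit of the translocon-bound form, was 5.92, 5.57 and 6.25 CPM against 4.43 to 5.21, and edgeR did not call it (limma adjusted p = 0.0317, edgeR adjusted p = 0.176). Stt3b, the catalytic subunit of the other form, was 9.32, 9.12 and 10.9 CPM, within the control range of 7.51 to 11.9. The difference between the 2 catalytic subunits was not tested.

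Whether Hsp90b1 was called at 2 mg/kg depended on controls 28 and 29, and Hspa5 was called with neither set. Hspa5 was 201, 173 and 204 CPM, within the range of the 5 lower controls, and passed no test (log2 -0.32 ± 0.24, or 0.02 without 28 and 29, limma adjusted p = 0.518 and 0.910). Hsp90b1 was 193, 153 and 211 CPM, above the 5 lower controls and below the pair (log2 0.05 ± 0.25, or 0.41 without the pair, limma adjusted p = 0.943 and 0.00529). Calr, the calcium-binding lectin chaperone calreticulin, was 331, 276 and 321 CPM against 187, 222 and 307 in controls, and was called with both sets (log2 0.43 ± 0.11, limma adjusted p = 0.0156). Pdia6 was 86.5, 81.5 and 111 CPM against 67.7, 72.1 and 82.7, where liver 16 fell within the control range (log2 0.30 ± 0.08, limma adjusted p = 0.0203).

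Of the 4 ERAD genes, Herpud1 was called at this dose. The list was drawn up knowing that several members were lower than these same controls. No p-value is therefore given for the lower genes Herpud1, Syvn1 and Dnajb9. Herpud1 was 85.5, 120 and 98.0 CPM, below all 7 controls (log2 -0.75 ± 0.17, 59.6% of controls). Within number ranges its log2 difference was -1.25 for animals 1 to 7 and -0.80 for animals 14 to 20, and liver 36 had no control in its range. Syvn1 was 13.5, 10.1 and 10.7 CPM, of which 2 livers lay below the lowest control (log2 -0.47 ± 0.14). It was called by edgeR but not by limma. Dnajb9, a co-chaperone that is also an IRE1-XBP1 target, was 11.3, 13.2 and 13.9 CPM against 13 to 23.8 in controls (log2 -0.49 ± 0.15). It too was called by edgeR but not by limma. Sel1l was 13.9, 17.1 and 15.9 CPM and Edem1, a mannosidase-like ERAD factor, 7.67, 9.04 and 10.5, and neither was called. Among the sensors Atf6, at 2.96, 2.53 and 2.91 CPM, and Ern1, at 2.19, 2.39 and 2.74, were not called either (limma adjusted p = 0.225 and 0.326).

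Several of these calls rested on few livers. Without liver 36 only 2 members were called at 2 mg/kg against controls, and Calr, Krtcap2, Stt3a and Herpud1 also lost their call without liver 3, and Ddost without liver 16. Stt3a also lost it without control 2, 14 or 15. Sec61b and Sec61g kept theirs in every fit with 1 library left out, at limma adjusted p up to 0.00695 and 0.00489. The summed level of the 4 neutrophil markers in the table, of 5 listed, was 40.1 to 111 CPM at 2 mg/kg and 6.93 to 59.8 in controls, and that of Kupffer cell markers was 10.5 to 12.6 against 16.8 to 22.7. The 4 B and plasma cell markers in the table, of 6 listed, summed to 14.8 to 22 CPM at 2 mg/kg and 14.6 to 24.3 in controls, and Jchain was at most 0.770 CPM at 2 mg/kg and 0.521 in controls. Mzb1, a plasma cell marker, was at 0 in 4 of 7 controls and in 2 of the 3 livers at 2 mg/kg. The part of any of these cells in the differences was not tested.

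**Figure D3:**
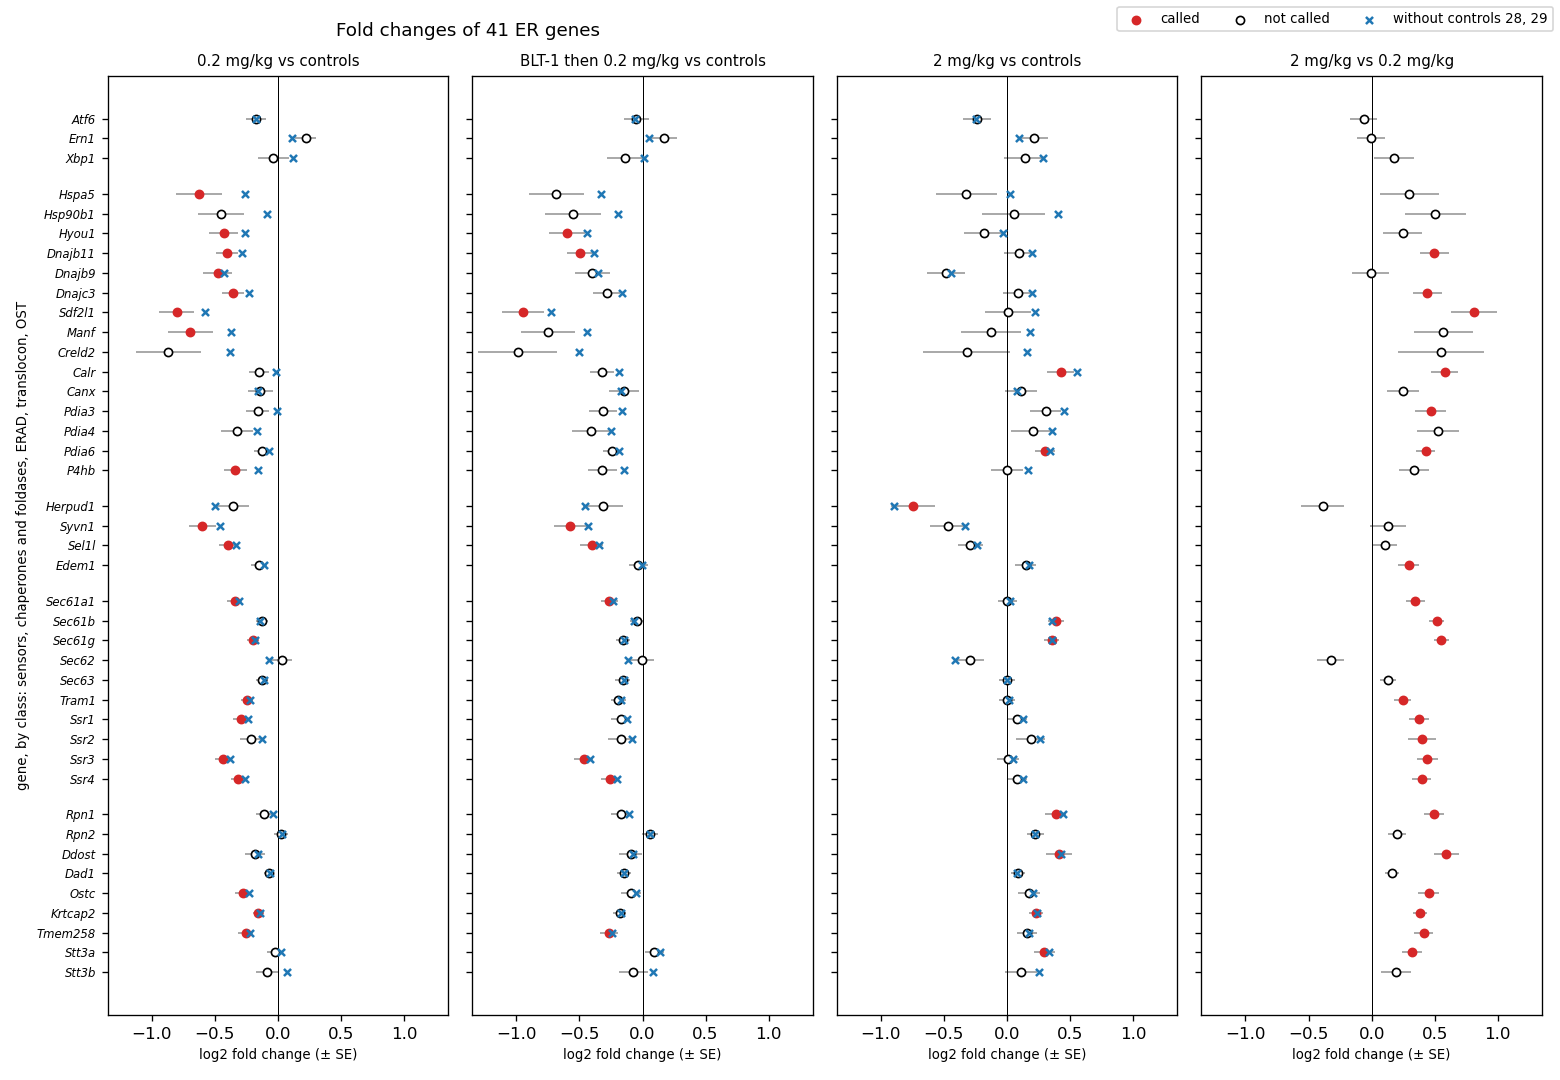
Log2 fold change with its standard error (horizontal axis) of the 41 genes (rows, by class) in 4 contrasts, filled where called and with crosses for the fit without controls 28 and 29. Most chaperone crosses lie to the right of the circles in the 3 contrasts with controls, translocon crosses lie close to their circles, and in the contrast of 2 with 0.2 mg/kg all but 5 of the 41 genes lie right of 0.

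The contrast of 2 with 0.2 mg/kg does not use the controls, although its fit shares their spread. Here 21 members were called higher and 0 lower, beside 2.95% of all genes called higher and 3.03% lower. The list was drawn up knowing that several members were low in these same 0.2 mg/kg livers, so part of the count follows from that choice. The contrast is therefore a description, with no p-value for a member and nothing read from the count. Called higher were 8 of 10 translocon genes (all but Sec62 and Sec63), 6 of 9 OST genes, 6 of 15 chaperones and foldases (Dnajb11, Dnajc3, Sdf2l1, Calr, Pdia3, Pdia6), Edem1 of the 4 ERAD genes and 0 of 3 sensors. The median log2 fold change was 0.47 for chaperones and foldases, 0.38 for the translocon, 0.39 for the OST and 0.12 for ERAD, against 0.00 over all genes.

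When controls 28 and 29 were left out of the fit, 27 members were called higher and 1 lower (beside 3.51% and 4.54% of all genes). The chaperones then numbered 12, with Hspa5, Hsp90b1, Manf, Creld2, Pdia4 and P4hb added. Their fold changes stayed nearly the same, as in Manf with log2 0.57 in one fit and 0.55 in the other. The 1 called lower was Sec62. Without liver 36 the count with all controls was 12.

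Sec61g and Sec61b, the small channel subunits, are given first. Sec61g was at 379, 418 and 390 CPM at 2 mg/kg against 249, 270 and 298 as the lowest, median and highest at 0.2 mg/kg (146%, log2 0.55 ± 0.06). Sec61b was at 236, 266 and 283 CPM against 167, 182 and 194 (log2 0.52 ± 0.06). In neither gene did the doses overlap. Ddost, at 14.1, 18.9 and 19 CPM against 8.86, 11.2 and 12.7, differed by log2 0.59 ± 0.10. Rpn1 (19.1, 20.3 and 24.0 CPM against 12.8, 14.9 and 16.4), Krtcap2 (59.4, 55.2 and 59.7 against 41, 44.6 and 46.8) and Pdia6 (86.5, 81.5 and 111 against 65.1, 68.6 and 74.2) did not overlap between the doses either.

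Sdf2l1 had the largest fold change of the list, with 18.2, 19 and 26.0 CPM against 10.2, 11.7 and 12.9, or 176% (log2 0.81 ± 0.18). Its call was lost without liver 36, the highest of the 3. Hspa5 was 201, 173 and 204 CPM against 141, 158 and 170, without overlap, and was called only without controls 28 and 29 in the fit (log2 0.30 ± 0.24 and 0.29).

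Sec61a1 and Ssr3, which at 2 mg/kg lay inside the control range, were called higher than at 0.2 mg/kg. Sec61a1 was 35.7, 37.3 and 36.1 CPM at 2 mg/kg against 25.2, 28.2 and 33.7 at 0.2 mg/kg, without overlap (log2 0.35 ± 0.08). Ssr3 was 35.1, 35.4 and 41.1 CPM against 24.6, 26.6 and 30.9 (log2 0.44 ± 0.08). Sec62, a channel partner that serves entry after translation and is known as an ER-phagy receptor, lay the other way. Its 3 livers at 2 mg/kg held 59.9, 59.8 and 67.3 CPM, below all 8 at 0.2 mg/kg (67.9 to 90.2), and it was not called with all controls in the fit (log2 -0.33 ± 0.11). In 23 members the doses did not overlap upward, beside 4.02% of all genes, and Sec62 was the 1 member without overlap downward, beside 3.62%. Within number ranges the chaperone mean differed by log2 0.27 to 0.59, the translocon mean by 0.28 to 0.34 and the OST mean by 0.29 to 0.45 in the 3 ranges.

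Between livers given BLT-1 before 0.2 mg/kg and those given 0.2 mg/kg alone, no member was called in either direction by limma, edgeR, DESeq2 or limma voom, and 1 member had an unadjusted p below 0.05 by limma, 1 by edgeR, 1 by DESeq2 and 2 by voom, beside 0.0279% of all genes called higher, 0.065% called lower and 8.2% at that unadjusted p. Fold changes ran from log2 -0.17 (in the class of chaperones and foldases) to 0.19 (Ostc). Calr was 178, 184, 182 and 191 CPM in livers 6, 7, 19 and 20, all below the 8 livers at 0.2 mg/kg (193 to 220), and no other member separated the groups (beside 0.799% of all genes lower and 0.957% higher). Ostc was 74.1, 63.8, 57.6 and 70.5 CPM against 53.4 to 66.5 (log2 0.19 ± 0.08, limma adjusted p = 0.499). Without controls 28 and 29 in the fit 0 members were called too, beside 0.0375% of all genes higher and 0.075% lower. Sec61a1 was 30.7, 31.2, 27 and 32.2 CPM and Ddost 11.6, 13.2, 10.6 and 12.6, each within or close to the range at 0.2 mg/kg. The standard error of a difference here was 0.05 to 0.31, so differences of that size were not detectable in the genes concerned, and the missing calls do not show equal levels.

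Against controls, the same 4 livers were called lower in 9 members and higher in 0, beside 0.938% and 1.86% of all genes. The list was drawn up knowing that several members were lower than these same controls, so this contrast too is a description, with no p-value for a member and nothing read from the count. The 9 were Hyou1, Dnajb11, Sdf2l1, Syvn1, Sel1l, Sec61a1, Ssr3, Ssr4 and Tmem258. Sdf2l1 was 10.3, 12.8, 7.86 and 11.7 CPM, below every control (51.9%, log2 -0.95 ± 0.17). Ssr3 was 26.6, 27.8, 24.4 and 27.6 CPM, also below every control (log2 -0.47 ± 0.08). Hspa5 was 158, 151, 130 and 161 CPM, below every control too, yet it was called only without controls 28 and 29 (log2 -0.68 ± 0.22 and -0.33).

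Both members of the ERAD ligase pair were called lower. Syvn1 was 11.7, 10.7, 9.60 and 10.2 CPM (log2 -0.57 ± 0.13) and Sel1l 14.1, 14.4, 14.4 and 14.7 CPM (log2 -0.40 ± 0.09), where Syvn1 overlapped with control 27 alone. Hyou1 was 10.1, 9.89, 9.33 and 9.67 CPM, below all controls, and Dnajb11 25.6, 27.1, 21.9 and 29.9 CPM. Without controls 28 and 29 the count was 7 lower and 0 higher, beside 1.51% and 2.29% of all genes. With all controls it fell to 3, 4 and 5 without livers 19, 7 and 20. With animal number ranges as a block it was 4, since Hyou1, Syvn1, Sec61a1, Ssr4 and Tmem258 passed no longer. Of the 22 fits with 1 library left out, Ssr4 and Tmem258 each lost their call in 18 and Sec61a1 in 17. Among these were fits without a control, without a liver at 0.2 mg/kg alone or without a liver at 2 mg/kg. Hyou1 lost its call in 4 fits, Syvn1 in 3 and Dnajb11 in 1, and Sdf2l1, Sel1l and Ssr3 in 0. In 11 members the groups did not overlap downward, beside 1.61% of all genes. Kupffer cell markers summed to 9.14 to 16 CPM with BLT-1, against 16.8 to 22.7 in controls. Endothelial markers summed to 35.8 to 41.3 CPM with BLT-1, 38.8 to 73.9 at 0.2 mg/kg alone and 40.6 to 54.0 in controls. Pecam1 was 4.39 to 7.82 with BLT-1, below every liver at 0.2 mg/kg alone. The other listed endothelial markers went both ways. Their medians with BLT-1 and at 0.2 mg/kg alone were 17.4 and 16.1 CPM (Clec4g), 7.26 and 6.22 (Kdr), 2.90 and 3.51 (Stab2) and 5.10 and 5.43 (Lyve1). The part of Kupffer or endothelial cells in the differences of the members from controls and from 0.2 mg/kg alone was not tested.

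The stress-induced chaperones were then set against the translocon within each liver. The mean log2 level of the 15 chaperones and foldases minus that of the 10 translocon genes was 0.63 ± 0.30 in controls (SD, n = 7), 0.44 ± 0.06 at 0.2 mg/kg (n = 8), 0.33 ± 0.02 with BLT-1 (n = 4) and 0.56 ± 0.11 at 2 mg/kg (n = 3). Controls 28 and 29 had 1.02 and 1.09 and the other 5 controls 0.35 to 0.56. Without the pair the control mean was 0.46 ± 0.09, and the difference of 0.2 mg/kg from it went from -0.20 to -0.03, inside the spread of either group. The 4 livers with BLT-1 (0.310 to 0.359) lay below all livers at 0.2 mg/kg alone (0.365 to 0.524), with a difference of means of -0.11. A median over members in place of the mean turned the direction of 0.2 mg/kg and of 2 mg/kg against controls (0.17 and 0.30), so no order of the classes is drawn from these means.

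Taken by class and without 28 and 29, the mean log2 difference at 0.2 mg/kg from controls was -0.23 for chaperones and foldases, -0.21 for the translocon, -0.35 for ERAD and -0.08 for the OST. At 2 mg/kg it was 0.20, 0.10, -0.32 and 0.27 in the same order, and at 0.2 mg/kg with BLT-1 it was -0.31, -0.17, -0.31 and -0.06. Translocon means at 0.2 mg/kg (5.35 to 5.49) lay below those of all controls (5.59 to 5.71), and OST means at 2 mg/kg (4.92 to 5.09) lay above those of all controls (4.70 to 4.87). No test was made on these means because the members were chosen.

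**Figure D4:**
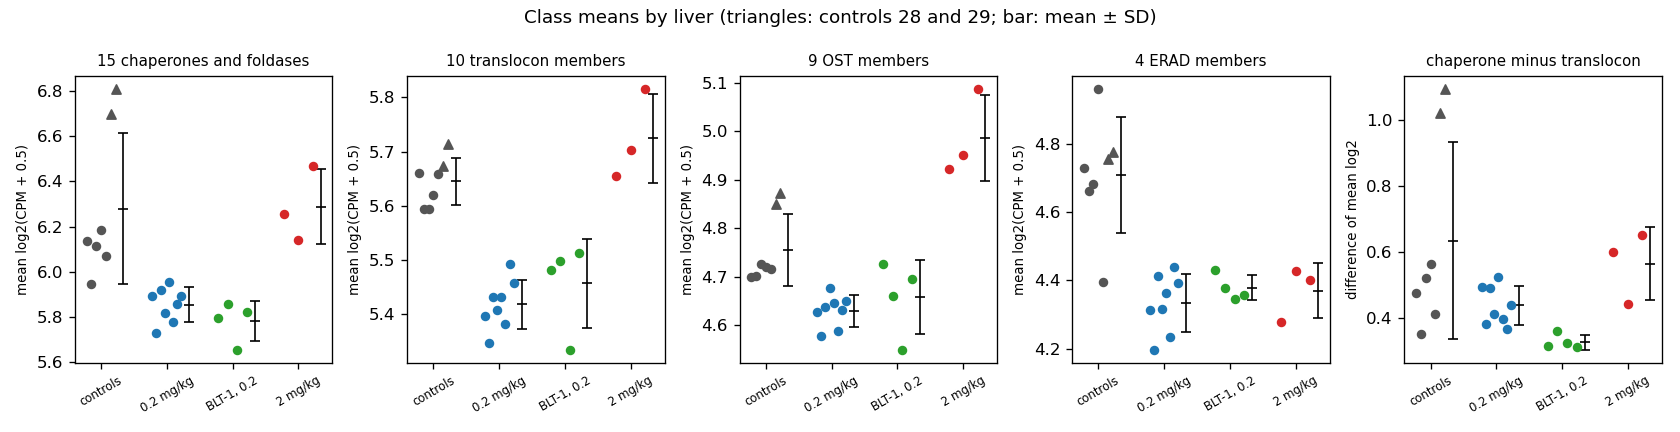
Mean log2(CPM + 0.5) over the members of each of 4 classes, and the chaperone mean minus the translocon mean, in each liver of the 4 groups with the group mean and SD (vertical axes do not start at 0). Controls 28 and 29 (triangles) set the spread of the chaperone panel and of the difference, while the translocon panel separates 0.2 mg/kg from controls with them or without them.

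Members of the chaperone class also varied together within groups. Over the 22 livers, the deviation of a chaperone from its group mean correlated with that of the mean of the other chaperones at a median r of 0.85 (from -0.02 for Canx to 0.96 for Hspa5), and at 0.59 over the 20 livers without 28 and 29. Set against the chaperone mean, not that of their own class, translocon genes had medians of 0.44 and 0.41 and OST genes 0.44 and 0.37. These points share libraries, depth and scaling, and the chaperone value moves most without 28 and 29. Outside the list, the 8 genes most like the chaperone mean by this measure were Agt (angiotensinogen), Derl3 (an ERAD channel protein), E030018B13Rik, Surf4 (a cargo receptor for ER export), Nceh1, Creb3l3 (an ER-bound transcription factor of liver), Tmed5 and Chmp4b, at r of 0.93 to 0.91. These 8 were chosen with 28 and 29 included. Without the pair Surf4 had an r of 0.72, Agt and Derl3 had 0.61 and the other 5 had 0.44 to 0.51.

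Derl3 and Creb3l3 were highest in controls 28 and 29. Derl3 was 8.44 and 10.8 CPM in controls 28 and 29, 0.912 to 2.31 in the other 5 controls and at most 2.91 in every other liver. Creb3l3 was 92.2 and 102 CPM in them and 49.4 to 65.7 in all the others.

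Other genes of the pathway, from lists drawn up beside the members, were called in few places. These lists too were chosen with earlier results of these data known, so their calls are a description. No p-value is given for a listed gene in the contrasts where none is given for a member. Of 13 tested genes of the ATF4 branch and integrated stress response, 0 were called in any of the 5 contrasts by limma, with medians of log2 -0.20 to 0.01. At an unadjusted p below 0.05 there were 0 to 3 genes in a contrast by limma, and edgeR and DESeq2 called 0 as well. Over all 10763 genes, 883 to 2094 had an unadjusted p below 0.05 in a contrast by limma, and 10 to 847 were called. The missing calls in so short a list do not show that this branch was unchanged. Of 18 other ER folding enzymes, Txndc5 and the oxidase Ero1b were lower at 0.2 mg/kg (Ero1b at 3.84 to 6.44 CPM against 6.33 to 7.69, log2 -0.32 ± 0.08), and Txndc5 lost its call without controls 28 and 29. Ero1b was called lower at 2 mg/kg as well, at 4.56 to 4.71 CPM (log2 -0.48 ± 0.10), and with BLT-1 against controls (log2 -0.41 ± 0.09), where it was the only gene called of all 6 lists. Prkcsh, a subunit of glucosidase II, was higher at 2 mg/kg than in controls (12.7 to 15.5 CPM against 10.0 to 12.2, limma adjusted p = 0.0414, or 0.0575 without controls 28 and 29). It was also called higher at 2 than at 0.2 mg/kg, as was the prolyl isomerase Ppib (109 to 146 CPM against 83.5 to 104).

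Of 15 other ERAD genes, Selenos was lower at 0.2 mg/kg than in controls and higher at 2 than at 0.2 mg/kg (95.9 to 107 CPM against 68.3 to 83.7, log2 0.43 ± 0.09), while Derl2 and Rnf139 were higher at 0.2 mg/kg. None of these 3 passed at 0.2 mg/kg without controls 28 and 29. Of 14 signal recognition and signal peptidase genes only Spcs3 was called, at 2 against 0.2 mg/kg (log2 0.39 ± 0.11), and it lost its call without controls 28 and 29. Of 19 other OST and dolichol pathway genes only Dpagt1, the first enzyme of the sugar donor, was called, lower at 0.2 mg/kg and higher at 2 than at 0.2 mg/kg (8.77 to 10.3 CPM against 6.72 to 8.51). Without controls 28 and 29 its call at 0.2 mg/kg was lost. Of 17 genes of ER exit and Golgi return, Surf4 (31.8 to 34.4 CPM against 22.5 to 27) and Tmed10 were higher and Sar1b lower at 2 than at 0.2 mg/kg.

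On the scale the authors deposited, the spike-in reads divided by the factor of each library varied little between libraries (coefficient of variation 3.85%, against 31.6% for gene reads), and no member was called in any contrast. The unadjusted p was below 0.05 for 10 members at 0.2 mg/kg against controls, 3 at 2 mg/kg and 1 between the doses. Over all 11159 genes tested on that scale it was below 0.05 for 438, 663 and 391 in the same order, and nothing is read from the member counts. The median of all genes shifted on that scale, by log2 -0.11, -0.23 and -0.12 in those contrasts. Relative to that shift the chaperone medians were -0.42, 0.03 and 0.46 and the translocon medians -0.24, 0.02 and 0.39, beside -0.41, 0.04 and 0.47 and -0.23, 0.03 and 0.38 on the TMM scale. Differences between genes above are thus relative to the bulk of genes, and whether the absolute amount of these transcripts changed was not determined here.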

How the data were processed

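Livers of 22 mice were profiled by 3' mRNA sequencing with ERCC spike-ins. Per the submitters' processing notes the tools named are bcl2fastq, Trim Galore 0.6.7, STAR 2.7.9a, Salmon 1.5.2, R 4.1.1 and DESeq2 1.32.0 and the build is GRCm39, with no roles or order given. The deposited table holds normalized signal per gene. How the authors scaled it is not given in the sources used here. Dividing by the smallest step of each library gave whole reads for 100% of values within 0.001. From these reads, without the 84 spike-ins, CPM was computed with TMM scaling, and genes with at least 1 CPM in at least 3 libraries were kept.

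Values of log2(CPM + 0.5) were fitted over all 22 libraries with limma 3.58.1 (trend) in R 4.3.3, with Benjamini-Hochberg adjustment over 10763 genes and calls at 0.05. Fold changes understate those of low genes because of the pseudocount. edgeR 4.0.16, DESeq2 1.42.0, limma voom, the deposited scale, an animal number range as block, and fits without each library were alternatives. The fit was tested on simulated data.

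Tables and plots were made with Python 3.11.15, pandas 2.3.3, numpy 2.4.6 and matplotlib 3.10.9. The members, classes and other gene lists were chosen with earlier results of these data known. By rule, values by liver were given for the up to 6 called members with the smallest adjusted p in each contrast, for Hspa5, Sec61a1 and Ddost, and for the largest absolute fold change of each class at either dose against controls. Up to 3 called genes of each other list and the 8 genes most like the chaperone mean, by correlation of within-group deviations, were named too. Further members with values (among them Xbp1, Hsp90b1, Manf, Calr, P4hb, Sec62, Stt3a and Stt3b) were chosen after their values were seen. Promoters came from RefSeq, build GRCm38.p6, and were matched by symbol, and their coordinates were not combined with the deposited table. Libraries held 7152596 to 15101565 reads, and p-values measure only the spread between these livers.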

Additional observations from a re-analysis of the deposited data

Results flagged for a closer look

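Among 123 sets of 1 gene in 1 group of 4 to 8 livers, 3 held a liver far from the others by Dixon's test at the 95% level, and chance flags about 1 in 20 groups. Dnajc3, a BiP co-chaperone and inhibitor of PERK, was 31.2 CPM in animal 31 at 0.2 mg/kg, where the next of the 8 livers had 35.0. Edem1 was 7.31 CPM in animal 19 of the BLT-1 group, where the next of 4 had 8.02. Tmem258, a small OST subunit, was 101 CPM in the same liver, where the next had 127.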

How the results depend on the processing

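No paired analysis was possible because the animal numbers in the titles are unique to each liver and none is shared between groups. Counts follow the order low dose versus controls, high dose versus controls, high versus low dose, pretreated versus low dose alone, and pretreated versus controls, where pretreated livers are those given BLT-1. In this order 620, 847, 643, 10 and 301 genes and 19, 9, 21, 0 and 9 members were called. On the deposited scale these were 23, 51, 30, 0 and 1 genes and 0 members throughout, and Krtcap2 for the high dose versus controls turned to log2 -0.0153. At an adjusted p below 0.01 they were 277, 423, 299, 3 and 122 genes, with 9 members for the low dose, 4 for the high dose and 2 for pretreated livers, each versus controls. Fitting the compared groups alone gave 312 genes and 2 members for the high dose and 177 genes and 2 members for pretreated livers versus controls. DESeq2 called 98 genes for pretreated livers versus the low dose alone and 471 genes and 19 members for them versus controls, voom called 25 genes in the former, and the number range as block left 4 members in the latter. With a median over members the chaperone minus translocon difference was 0.17 for the low and 0.30 for the high dose versus controls, and for pretreated livers -0.18 versus the low dose and -0.0106 versus controls. Leaving out 1 library gave 463 to 652, 373 to 1056, 228 to 827, 2 to 23 and 172 to 343 genes, and 13 to 21, 2 to 12, 12 to 22, 0 and 3 to 10 members, and that difference ran from -0.24 to -0.12, -0.12 to 0.01, 0.08 to 0.19, -0.12 to -0.10 and -0.36 to -0.23. The causes were not tested. Of 3465 refits of single genes, 3261 kept direction and side of the threshold, 159 lost a call, 44 gained one and 1 reversed. Depth limits Ern1 most, with 14 reads in control 29.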
